A study of Mus musculus with 18 samples.

Results

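The 10 genes Sycp1, Sycp2, Sycp3, Hormad1, Tex12, Syce1, Smc1b, Stag3, Meioc and Dmc1 act in meiosis. Most build the chromosome axis and the synaptonemal complex, whereas Meioc keeps cells in meiotic prophase and Dmc1 encodes the meiotic recombinase. All 10 are called axis and synapsis genes below. They were measured by RNA-seq in 9 whole mouse embryos at E11.5 and are 10 of the 34244 named genes of the expression table. Embryos were FVB and of 3 genotypes with 3 embryos each: Dnmt3b+/+, Dnmt3b-/- and Dnmt3bCI/CI, the last with a knock-in allele whose de novo DNA methyltransferase carries a substitution in its catalytic site and is made from its own locus. The null allele is a conventional knockout, no agent was given, and each library came from a different embryo. The genes were chosen by their role in meiosis with the differences between these same embryos already known, so their differences are descriptions. Whether a gene passed the threshold of a fit over all genes is given as part of that description, and no p-value is printed for the 10 genes. Any matching row was taken, whatever its level.

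In germ cells that enter meiosis, each pair of sister chromatids is folded into loops along a protein axis of cohesin, SYCP2, SYCP3 and HORMAD proteins. The axes of homologous chromosomes are then zipped together by the synaptonemal complex, in which SYCP1 filaments span the gap and central element proteins such as SYCE1 and TEX12 hold the filaments in register. These genes are normally silent in somatic cells, many of them carry CG-rich promoters, and DNA methylation is known to help keep such germline genes off. Primordial germ cells are still few at E11.5 and have not begun meiosis.

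Values are FPKM, reads scaled to the length of the exons and to the size of the library, and libraries held 38451730 to 49808777 reads. A gene without reads carries a small floor in place of 0. Log2 fold changes, given with their standard error (SE), are on the log2(FPKM + 0.1) scale and understate the change of low genes. They come from a limma fit of 19397 genes, and a gene is called at a Benjamini-Hochberg adjusted p under 0.05 with a fold change of at least 2. Dnmt3b itself was not lower in the embryos labelled Dnmt3b-/-, with 2.45, 3.12 and 3.33 FPKM against 2.25, 1.62 and 2.04 FPKM in Dnmt3b+/+ embryos, so they are called null-labelled embryos below. Reads summed over all exons do not tell whether some exons were deleted. The authors genotyped embryos on yolk sac DNA and probed Dnmt3b protein at E11.5 by immunoblot, which was not examined here. Some libraries stood apart. Replicate 2 of Dnmt3b+/+ held 20 reads of Afp and 12 of Alb, both liver genes, against at least 3196 and 918 reads in every other embryo. It also held 14 reads of Gata1, a gene of red blood cells, against at least 121 in every other embryo. Replicate 1 of Dnmt3b+/+ and replicate 3 of Dnmt3bCI/CI carried Xist reads and at most 2 reads of each of 4 Y-linked genes, whereas all 3 embryos labelled Dnmt3b-/- had Y-linked reads. The former 2 embryos held 103 and 144 reads of Myh6, a heart gene, against at least 1339 in every other embryo. Of Tnnt2, a further heart gene, they held 545 and 770 reads, against 588 in replicate 1 of the embryos labelled Dnmt3b-/-. Of 12 tissue markers, Hbb-bh1, an embryonic globin, was called higher (9.14-fold, adjusted p = 0.00418) and Myog, a muscle regulator, lower (0.475-fold, adjusted p = 0.0405) in the embryos labelled Dnmt3b-/-. The call of Hbb-bh1 was kept under all 20 alternatives and that of Myog under 8 of 20, and Myog in replicate 1 of the labelled embryos, at 17.2 FPKM, lay within the Dnmt3b+/+ range of 16.4 to 24.0 FPKM. Apart from fits without these embryos, given below, the part of these differences in the values was not tested.

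Every null-labelled embryo lay above every Dnmt3b+/+ embryo for 9 of the 10 genes, with Dmc1 as the exception. The rise ran from 1.86-fold for Sycp3 to 75.8-fold for Syce1 among the genes with more than 3 reads in Dnmt3b+/+ embryos. Hormad1 and Tex12, with 1 read each over the 3 Dnmt3b+/+ libraries, cannot be ranked against it. Smc1b was too low for the fit. Hormad1 entered the fit only through null-labelled embryos, and Sycp2, Tex12 and Syce1 only through the mutant genotypes. Of the other 9 genes, 7 were called higher, namely Sycp1, Sycp2, Hormad1, Tex12, Syce1, Stag3 and Meioc, and 0 were lower. With a pseudocount of 1 FPKM, 3 were called, namely Sycp1, Syce1 and Stag3. Over all genes fitted, 1.07% were called higher, 3.38% lower, and 15.1% had the 3 null-labelled embryos above the 3 Dnmt3b+/+ embryos, as had 8 of the 9 genes fitted here. The median log2 fold change was 1.61 over the 9 genes and -0.07 over all genes. The comparison is the one known when the genes were chosen, so nothing is read from these counts.

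All 9 genes fitted had a positive log2 fold change in Dnmt3bCI/CI against Dnmt3b+/+ embryos, with a median of 1.11 against 0.02 over all genes, and 4 were called higher, namely Sycp1, Syce1, Stag3 and Meioc. The share called higher over all genes was 0.129%. The Dnmt3bCI/CI embryos exceeded every Dnmt3b+/+ embryo in 7 of the 10 genes and 6 of the 9 fitted, which held for 7.53% of all genes fitted. The call of Meioc was kept under 10 of 19 alternatives and that of Stag3 under 7 of 20, whereas Sycp1 kept its call under all 20. Meioc and Stag3 lost theirs with the replicate number as a block and with only the groups compared in the fit. With 1 embryo left out, Meioc was called in 4 of 9 fits and Stag3 in 1 of 9. Between null-labelled embryos and Dnmt3bCI/CI embryos, 3 genes were called higher in the former, namely Hormad1, Tex12 and Syce1, and 0 were lower, and 1 was called with a pseudocount of 1 FPKM. Over all genes, 1.10% were called higher and 4.32% lower there. Null-labelled embryos lay above all Dnmt3bCI/CI embryos for 6 of the 10 genes, all of them fitted, against 16.7% of all genes fitted. Both comparisons against Dnmt3b+/+ share the same 3 control embryos.

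**Figure D1:**
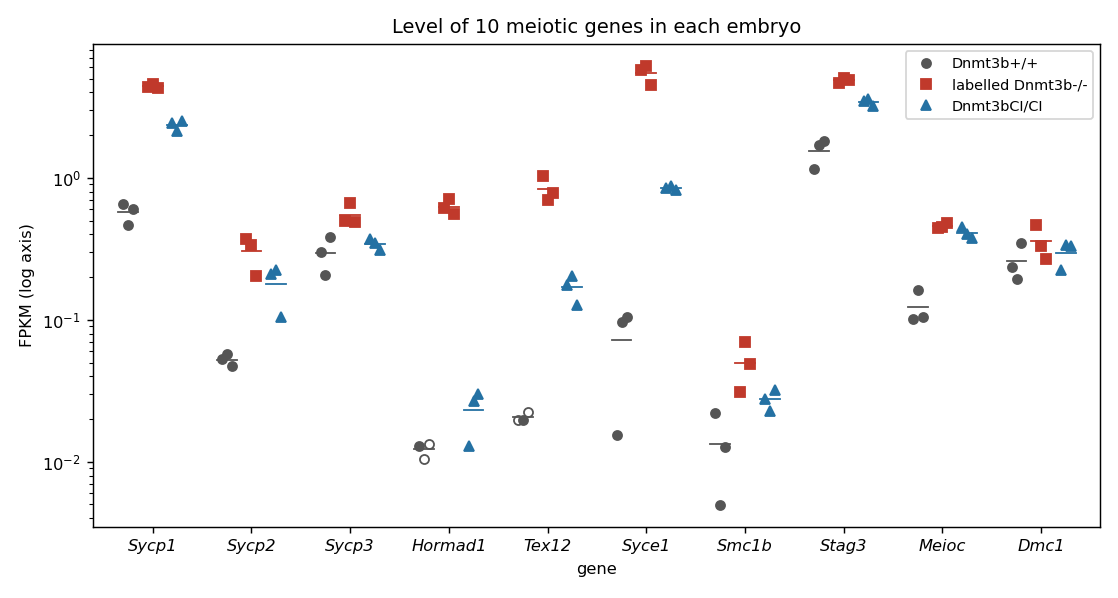
FPKM of each of the 10 genes in each embryo, on a log axis. Points are embryos, short lines are group means and open points are embryos without reads, drawn at the floor value. Null-labelled embryos lie above the Dnmt3b+/+ embryos for every gene but Dmc1, and Syce1 rises from 0.0721 to 5.47 FPKM on average.

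Sycp1 encodes the transverse filament of the synaptonemal complex and lies on chr3:102818499-102936100 of GRCm38, on the minus strand. It had 0.655, 0.463 and 0.602 FPKM in Dnmt3b+/+ embryos, 4.37, 4.54 and 4.29 FPKM in null-labelled embryos, and 2.42, 2.14 and 2.52 FPKM in Dnmt3bCI/CI embryos. The 3 genotypes did not overlap, and with 82 to 687 reads per library Sycp1 is among the best measured of the 10 genes. Null-labelled embryos differed by little among themselves, with a mean of 4.40 ± 0.133 FPKM (SD, n = 3). This was 7.67-fold above Dnmt3b+/+ (log2 fold change 2.75, SE 0.12), while Dnmt3bCI/CI embryos were 4.11-fold above it (1.88, SE 0.12). The difference between the 2 mutant genotypes was 1.86-fold, under the threshold of 2.

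Syce1, on chr7:140777229-140787852 on the minus strand, encodes a central element protein that binds the SYCP1 filaments, and it reached the highest level of the 10 genes in null-labelled embryos. Dnmt3b+/+ embryos had 0.0153, 0.0963 and 0.105 FPKM, from 1, 7 and 6 reads. Null-labelled embryos had 5.75, 6.14 and 4.51 FPKM, from 267 to 381 reads. In Dnmt3b+/+ embryos it was the sixth in level. In Dnmt3bCI/CI embryos it stood at 0.854, 0.870 and 0.819 FPKM, between the other genotypes and without overlap. The log2 fold change was 5.05 (SE 0.22) in null-labelled embryos and 2.51 (SE 0.22) in Dnmt3bCI/CI embryos, and the 2 mutant genotypes differed 6.45-fold. The call in Dnmt3bCI/CI embryos was lost with a pseudocount of 1 FPKM and with limma-voom on reads.

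Tex12 encodes the partner of SYCE2 in the central element and lies on chr9:50556819-50561325 on the minus strand. In Dnmt3b+/+ libraries it had 0, 1 and 0 reads. Null-labelled embryos had 42, 30 and 32 reads, or 1.04, 0.695 and 0.777 FPKM, and Dnmt3bCI/CI embryos had 8, 9 and 5 reads, or 0.175, 0.205 and 0.128 FPKM. The ratio of pooled reads to Dnmt3b+/+ was 113 (exact 95% interval 19.9 to 4509, counting error only) in the former and 23.2 (3.75 to 958) in the latter. All 3 genotypes were separate. The log2 fold change in Dnmt3bCI/CI embryos, 1.15 (SE 0.17), was not called.

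Other genes of the synaptonemal complex did not all follow. Six6os1, a further central element gene, had 0.448 ± 0.0449 FPKM in null-labelled embryos against 0.117 ± 0.0161 FPKM in Dnmt3b+/+ (SD, n = 3) and was called higher (log2 fold change 1.34, SE 0.13, adjusted p = 0.000453). It had 0.137 ± 0.0155 FPKM in Dnmt3bCI/CI embryos (SD, n = 3). The 3 mutant embryos of that genotype had 40, 31 and 33 reads of Six6os1 and overlapped the 34, 37 and 23 reads of Dnmt3b+/+ embryos. Syce2, the partner of TEX12, was present in every embryo at 256 to 366 reads and was not called (log2 fold change 0.27, SE 0.15, adjusted p = 0.218). Syce3 had 0 reads in all 9 libraries. Sycp2l, a relative of Sycp2, was too low for the fit, with 3, 7 and 4 reads in null-labelled embryos against 1, 2 and 0 in Dnmt3b+/+ embryos. Every null-labelled embryo was above, and the ratio of pooled reads was 5.07 (exact 95% interval 1.42 to 27.5). The last 3 genes were picked out after their values were seen.

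Hormad1 encodes a HORMA domain protein that coats unsynapsed axes and is needed for meiotic break formation, and lies on chr3:95559677-95587671 on the plus strand. It was almost silent in Dnmt3b+/+ embryos, with 1, 0 and 0 reads. Null-labelled embryos had 42, 52 and 39 reads, or 0.609, 0.707 and 0.556 FPKM. Dnmt3bCI/CI embryos had only 1, 2 and 2 reads and overlapped Dnmt3b+/+ embryos. Hormad1 was 145-fold higher by pooled reads in null-labelled embryos (exact 95% interval 25.5 to 5754) and 26.9-fold above Dnmt3bCI/CI embryos by mean FPKM. For Dnmt3bCI/CI against Dnmt3b+/+ the interval of 0.591 to 249.6 spans 1, so a difference was not detectable at this depth. The related gene Hormad2 was called higher in null-labelled embryos (log2 fold change 1.89, SE 0.18, adjusted p = 0.000455), with 33, 48 and 58 reads against 3, 4 and 6. Hormad2 had 15, 16 and 15 reads in Dnmt3bCI/CI embryos, above Dnmt3b+/+ in all 3 embryos but not called (adjusted p = 0.451). It entered the fit only through the mutant genotypes, where it is high, so that its call is no support for a difference.

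Sycp2 and Sycp3 form the lateral elements, the condensed axes within the complex. Sycp2, on chr2:178345293-178407685 on the minus strand, had 0.0525, 0.0572 and 0.0470 FPKM in Dnmt3b+/+ embryos, 0.370, 0.339 and 0.203 FPKM in null-labelled embryos and 0.209, 0.225 and 0.105 FPKM in Dnmt3bCI/CI embryos. Both mutant genotypes lay above Dnmt3b+/+ in every embryo but overlapped each other, since replicate 3 of the former had less than replicates 1 and 2 of the latter. The rise was 5.81-fold (log2 fold change 1.38, SE 0.22) and 3.43-fold (0.85, SE 0.22).

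Sycp3, on chr10:88459569-88473236 on the plus strand, changed least among the genes whose groups separated. It had 0.301, 0.207 and 0.383 FPKM in Dnmt3b+/+ embryos, 0.496, 0.670 and 0.488 FPKM in null-labelled embryos and 0.370, 0.347 and 0.309 FPKM in Dnmt3bCI/CI embryos. These values rest on 13 to 36 reads per library. Null-labelled embryos were 1.86-fold above Dnmt3b+/+ (log2 fold change 0.73, SE 0.19), under the threshold, and Dnmt3bCI/CI embryos lay within the range of Dnmt3b+/+. Exons of Chpt1 on the opposite strand share 52.2% of the exon bases of Sycp3. Chpt1 had 0.943, 1.13 and 0.987 FPKM in the 3 groups, in the order above, and whether the libraries keep strand is not given in the sources used here, so reads of both genes cannot be told apart.

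Cohesin rings hold sister chromatids together, and meiotic cells swap several ring subunits for germline forms. Stag3, on chr5:138280240-138312393 on the plus strand, is the meiotic STAG subunit. Its level was the highest among the 10 genes in Dnmt3b+/+ embryos, with 1.15, 1.70 and 1.81 FPKM from 295 to 486 reads. Null-labelled embryos had 4.66, 5.04 and 4.92 FPKM and Dnmt3bCI/CI embryos 3.49, 3.58 and 3.20 FPKM, all separate. The rise was 3.14-fold (log2 fold change 1.61, SE 0.15) and 2.20-fold (1.11, SE 0.15). Smc1b, on chr15:85064689-85131964 on the minus strand, encodes the meiotic form of SMC1 and remained close to the floor. It had 4, 1 and 2 reads in Dnmt3b+/+ embryos, 5, 12 and 8 in null-labelled embryos and 5, 4 and 5 in Dnmt3bCI/CI embryos. No embryo reached 0.1 FPKM, and it was not fitted.

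The kleisin Rec8, which closes the meiotic ring, was called higher in both mutant genotypes. It had 0.122, 0.0877 and 0.0742 FPKM in Dnmt3b+/+ embryos, 3.55, 3.19 and 2.92 FPKM in null-labelled embryos (log2 fold change 4.09, SE 0.13, adjusted p = 8.41e-07) and 0.746, 0.849 and 0.786 FPKM in Dnmt3bCI/CI embryos (2.20, SE 0.13, adjusted p = 0.000140). Rec8 entered the fit only through the mutant genotypes, where it is high, so that its calls are no support for a difference. Rad21l, the other meiotic kleisin, named after its values were seen, had at most 2 reads in any library. The 8 somatic counterparts Smc1a, Smc3, Rad21, Stag1, Stag2, Wapl, Pds5a and Pds5b, cohesin subunits and their regulators, had 0 calls in every comparison by limma, and 0 by limma-voom for the 7 with reads worked back, which leave out Rad21. At an unadjusted p under 0.05, 1 of the 8 was higher and 0 lower in null-labelled embryos than in Dnmt3b+/+, beside 14.6% and 25.4% of all genes fitted. Between Dnmt3bCI/CI and Dnmt3b+/+ embryos 0 differed, beside 2.70% higher and 2.55% lower. Against Dnmt3bCI/CI embryos, 4 were higher and 0 lower in null-labelled embryos, beside 2906 and 5227 of the 19397 genes fitted.

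Because FPKM is per length, a meiotic subunit can be set against its somatic counterpart in the same embryo. Stag3 amounted to 10.3%, 18.3% and 17.2% of the summed FPKM of Stag1 and Stag2 in Dnmt3b+/+ embryos. This share was 51.3%, 48.4% and 44.9% in null-labelled embryos and 32.2%, 38.4% and 33.8% in Dnmt3bCI/CI embryos. Rec8 went from 0.275 ± 0.0639% of Rad21 to 8.57 ± 1.73% and 2.50 ± 0.280% (SD, n = 3). Smc1b never exceeded 0.357% of Smc1a. Within whole embryos, more cells with a transcript and more transcript per cell cannot be told apart.

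**Figure D2:**
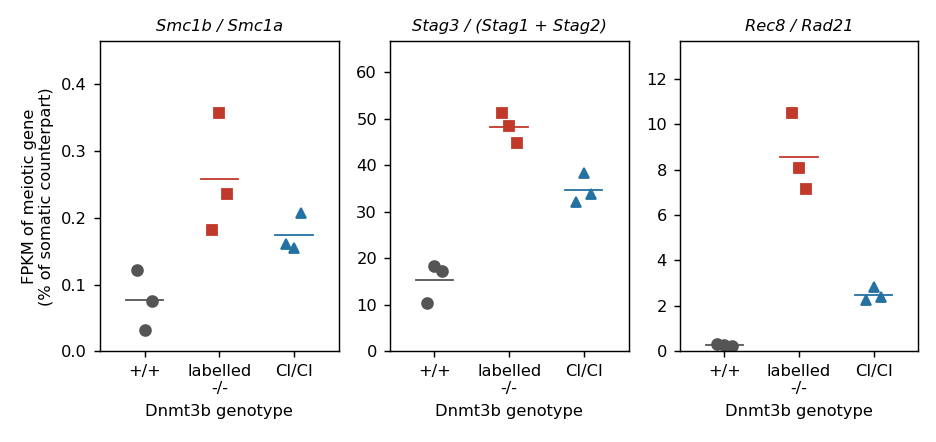
FPKM of 3 meiotic cohesin genes as a percentage of their somatic counterparts in each embryo, on linear axes from 0. Points are embryos and lines are group means. Stag3 reaches 48.2% of Stag1 and Stag2 together on average in null-labelled embryos, and Rec8 reaches 8.57% of Rad21.

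Meioc encodes a germ cell protein that, with the RNA helicase YTHDC2, keeps cells in meiotic prophase, and lies on chr11:102663716-102682237 on the plus strand. Meioc stood at 0.102, 0.161 and 0.105 FPKM in Dnmt3b+/+ embryos, 0.440, 0.449 and 0.481 FPKM in null-labelled embryos and 0.454, 0.400 and 0.378 FPKM in Dnmt3bCI/CI embryos. Both mutant genotypes were above Dnmt3b+/+ in every embryo and overlapped each other. The rise was 3.72-fold (log2 fold change 1.33, SE 0.14) and 3.35-fold (1.20, SE 0.14), and the mutants differed by 0.13 (SE 0.14). The list of other genes held 3 of meiotic entry. Meiosin, a transcription factor gene of the start of meiosis, had 27, 26 and 30 reads in Dnmt3b+/+ embryos, 43, 51 and 39 in null-labelled embryos and 54, 61 and 37 in Dnmt3bCI/CI embryos. Both mutant genotypes were above Dnmt3b+/+ in every embryo, 1.71-fold (adjusted p = 0.0406) and 1.89-fold (adjusted p = 0.583), under the threshold of 2. Ythdc2 was present in all embryos at 402 to 613 reads and was not called. Stra8, which retinoic acid induces at the start of meiosis, had at most 2 reads in any library. These 3 genes were not called and are named after their values were seen.

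Dmc1, on chr15:79561497-79605109 on the minus strand, encodes the meiotic recombinase and was the gene whose genotypes overlapped throughout. It had 0.235, 0.192 and 0.349 FPKM in Dnmt3b+/+ embryos, 0.469, 0.333 and 0.270 FPKM in null-labelled embryos and 0.224, 0.337 and 0.332 FPKM in Dnmt3bCI/CI embryos. The log2 fold change was 0.35 (SE 0.22) and 0.16 (SE 0.22). It had 21 to 41 reads per library, and the embryos of each genotype lay partly within the range of the others.

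Of 47 other genes of meiosis, 29 were high enough to be fitted, and 10 of these were called higher and 0 lower in null-labelled embryos (median log2 fold change 0.50), beside 1.07% and 3.38% of all genes fitted. The list was drawn up with results of these embryos known. Of the genes called, Hsf2bp and Majin entered the fit only through null-labelled embryos. Hormad2, Rec8, Ankrd31, Tex11 and Prr19 entered only through the mutant genotypes. The genes fitted and the calls thus depend in part on the rise itself, and the counts are no support for a difference. In Dnmt3bCI/CI embryos 5 were higher and 0 lower, with a median of 0.08, beside 0.129% of all genes higher. Against Dnmt3bCI/CI embryos, 7 were higher and 0 lower in null-labelled embryos, beside 1.10% and 4.32% of all genes. With a pseudocount of 1 FPKM the genes called in these 3 comparisons fell to 2, 0 and 1. The calls were spread over several steps. Axis and cohesin genes had 2 of 3 fitted called, break formation 3 of 5, and crossover formation 2 of 8. The synaptonemal complex had 1 of 2, strand exchange 1 of 5 and telomere attachment 1 of 3. Meiotic entry had 0 of 2 and cohesion protection 0 of 1.

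Several of these genes rose as far as the axis genes. Ankrd31, which recruits the break machinery to the axis, had 1, 0 and 0 reads in Dnmt3b+/+ embryos, 145, 145 and 139 in null-labelled embryos and 40, 32 and 22 in Dnmt3bCI/CI embryos. By pooled reads it was 466.5-fold (exact 95% interval 83.3 to 18470) and 99.2-fold (17.4 to 3960) above Dnmt3b+/+ (adjusted p = 1.25e-05 and 0.0135). Ankrd31 entered the fit only through the mutant genotypes, where it is high, so that its calls are no support for a difference. Iho1 and Rec114, of the same machinery, were called higher in null-labelled embryos (log2 fold change 1.60 and 1.63, adjusted p = 0.000220 and 0.00126). Iho1 was called in Dnmt3bCI/CI embryos as well (1.28, adjusted p = 0.00519) and Rec114 was not (0.41, adjusted p = 0.949). The call of Ankrd31 in Dnmt3bCI/CI embryos was kept under 10 of 19 alternatives and that of Iho1 under 17 of 20, and both were lost with the replicate number as a block and with only the 7 embryos with Y-linked reads. Exons of Nptn on the opposite strand share 26.9% of the exon bases of Rec114.

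Tex11, an X-linked crossover gene, had 0, 7 and 7 reads in Dnmt3b+/+ embryos, 213, 218 and 144 in null-labelled embryos and 58, 53 and 51 in Dnmt3bCI/CI embryos (adjusted p = 2.76e-05 and 0.00637), and its call in Dnmt3bCI/CI embryos was kept under 14 of 19 alternatives, lost among others with the block, with limma-voom and without Dnmt3bCI/CI replicate 1. Prr19, which acts late in crossover formation, was 8.18-fold and 4.69-fold above Dnmt3b+/+ (adjusted p = 5.52e-05 and 0.00307), the latter call lost with a pseudocount of 1 FPKM and with only the 7 embryos with Y-linked reads. Hsf2bp, which brings BRCA2 to meiotic breaks, had 0.980 ± 0.0798 FPKM in null-labelled embryos against 0.0886 ± 0.0354 FPKM in Dnmt3b+/+ embryos and 0.0781 ± 0.0288 FPKM in Dnmt3bCI/CI embryos (SD, n = 3). Like Hormad1 it overlapped Dnmt3b+/+ in Dnmt3bCI/CI embryos and was called between the 2 mutant genotypes (adjusted p = 0.000177). Hsf2bp entered the fit only through null-labelled embryos, and Tex11 and Prr19 only through the mutant genotypes, where they are high. Their calls are thus no support for a difference. Majin, which tethers telomeres to the nuclear envelope, was called higher in null-labelled embryos from 11, 10 and 8 reads against 3, 0 and 0 (adjusted p = 0.00613), a call lost with a pseudocount of 1 FPKM, without Dnmt3b+/+ replicate 2 or 3 or without replicate 1 of the null-labelled embryos. It entered the fit only through null-labelled embryos, where it is high, so that its call is no support for a difference. Msh4 was too low for the fit, and is named after its values were seen. It had 18, 12 and 13 reads in null-labelled embryos and 0 in all Dnmt3b+/+ libraries, at least 15.6-fold higher against a floor of 3 reads over the group.

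**Figure D3:**
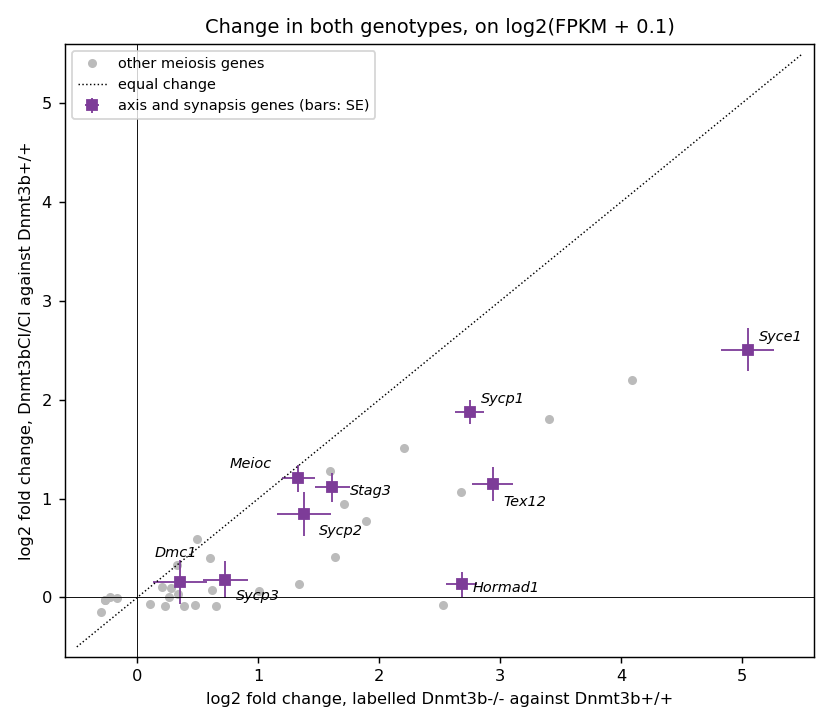
Log2 fold change against Dnmt3b+/+ in null-labelled embryos (horizontal axis) and in Dnmt3bCI/CI embryos (vertical axis), on log2(FPKM + 0.1). Squares are the 9 axis and synapsis genes fitted, with SE bars, grey points are the 29 other meiosis genes fitted and the dotted line marks equal change, and both axes share the Dnmt3b+/+ embryos. Meioc lies at 1.33 and 1.20, close to the line, whereas Hormad1 lies at 2.68 and 0.13.

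The size of the rise in Dnmt3bCI/CI embryos, taken on linear FPKM as a percentage of the mean rise in null-labelled embryos, differed widely between the 9 genes that rose in every embryo of the latter. For Hormad1 the 3 Dnmt3bCI/CI embryos reached 0.107%, 2.37% and 2.92% of the rise. For Syce1 they reached 14.5%, 14.8% and 13.9%, and for Tex12 19.0%, 22.6% and 13.2%. Sycp1 reached 48.4%, 40.9% and 50.8%, and Stag3 58.4%, 61.0% and 49.5%. Meioc reached 99.1%, 83.2% and 76.4%. The ranges of Hormad1, Syce1, Sycp1 and Meioc did not overlap one another, and those of Sycp1 and Stag3 did. Sycp2 was uneven at 62.3%, 68.5% and 20.8%. Sycp3 and Smc1b, with few reads or a small rise, averaged 17.7% and 39.0%.

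**Figure D4:**
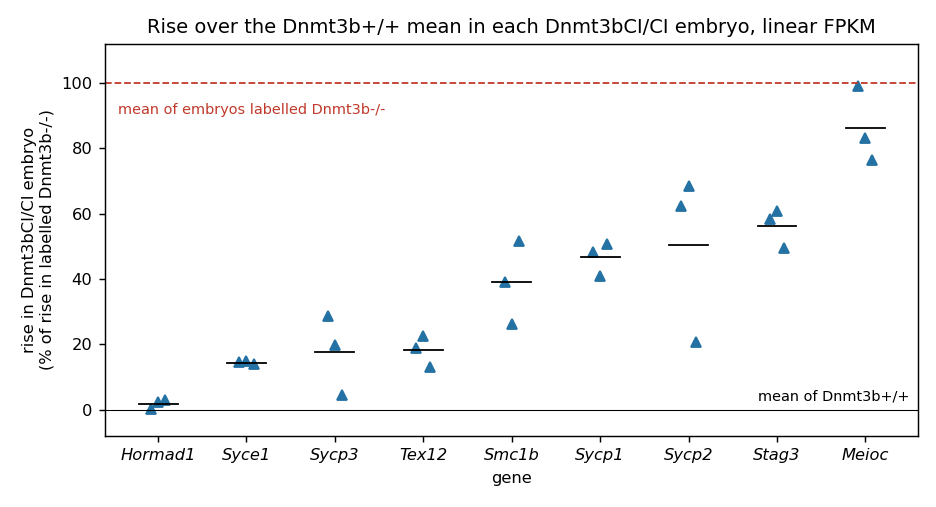
Rise of each Dnmt3bCI/CI embryo over the Dnmt3b+/+ mean, as a percentage of the mean rise in null-labelled embryos, on linear FPKM. Triangles are embryos and lines are their means, and Dmc1 is left out because its genotypes overlap. The means run from 1.80% for Hormad1 to 86.2% for Meioc.

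The order of levels changed with genotype. In null-labelled embryos, Syce1 (5.47 ± 0.851 FPKM), Stag3 (4.88 ± 0.194) and Sycp1 (4.40 ± 0.133) led, followed by Tex12 (0.836 ± 0.178), Hormad1 (0.624 ± 0.0767) and Sycp3 (0.551 ± 0.103), all mean FPKM ± SD with n = 3. Meioc, Dmc1, Sycp2 and Smc1b came last, at 0.456, 0.357, 0.304 and 0.0499 FPKM. Embryos overlapped between neighbours in this order except between Stag3 and Sycp1, Sycp1 and Tex12, Sycp3 and Meioc, and Sycp2 and Smc1b. In Dnmt3b+/+ embryos the order was Stag3, Sycp1, Sycp3, Dmc1, Meioc, Syce1 and Sycp2, from 1.55 to 0.0523 FPKM. Tex12, Smc1b and Hormad1 lay below, with 1, 7 and 1 reads over the 3 libraries, and were not ranked, since genes without reads carry a floor that depends on their length. In Dnmt3bCI/CI embryos Stag3 and Sycp1 led at 3.42 and 2.36 FPKM, and Hormad1 had 0.0232 FPKM from 5 reads in all.

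Promoters of the 10 genes were read from RefSeq on GRCm38.p6, from 250 bases before to 50 bases after the start, and all 10 matched. DNA methylation was not analysed here. The windows held 10 to 30 CG dinucleotides, with a median of 22.5 against 7 over 27025 genes with a promoter of the same length. They were searched on both strands for TCCCGC, the core letters of E2F and E2F6 sites, and for CACGTG, the E-box bound by MGA and MAX. These factors belong to a repressor complex that holds germline genes off in somatic cells. The E2F core occurred in 8 of the 10 windows and in 20.0% of all windows, the E-box in 5 and in 7.24%, and both together in 5 and in 2.05%. Among the 11876 windows with at least 10 CG, the fewest of any of the 10 genes, the shares were 40.3%, 11.1% and 4.42%. Sycp2 and Syce1 held neither motif. Among 35 of the other 47 meiosis genes with a window, 19 held the E2F core, 4 the E-box and 2 both. Of these genes, the E2F core was in 3 of the 8 called higher in null-labelled embryos and in 10 of the 15 fitted and not called. A match is a string of letters and not a bound site.

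Shown here are 5 windows, from 250 bases before to 30 bases after the start, 5′ to 3′ on the strand of the gene, with both motifs in capitals on either strand (GCGGGA is the E2F core on the other strand). Hormad1 (chr3:95559427-95559706, plus strand) and Tex12 (chr9:50561239-50561518, minus strand) are shown as the genes that were nearly silent in Dnmt3b+/+ embryos, Syce1 (chr7:140787825-140788104, minus strand) as the gene with the highest level in null-labelled embryos and no motif, Meioc (chr11:102665335-102665614, plus strand) as the gene with nearly the same level in both mutants, and Dmc1 (chr15:79605080-79605359, minus strand) as the gene that did not separate. The RefSeq start of Meioc lies inside the gene span given above, downstream of its first base.
Hormad1: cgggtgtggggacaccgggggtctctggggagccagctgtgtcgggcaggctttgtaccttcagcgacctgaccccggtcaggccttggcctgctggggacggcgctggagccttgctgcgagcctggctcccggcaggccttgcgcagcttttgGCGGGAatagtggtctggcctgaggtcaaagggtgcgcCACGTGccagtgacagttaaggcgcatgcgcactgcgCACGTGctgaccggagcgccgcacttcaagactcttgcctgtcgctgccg
Tex12: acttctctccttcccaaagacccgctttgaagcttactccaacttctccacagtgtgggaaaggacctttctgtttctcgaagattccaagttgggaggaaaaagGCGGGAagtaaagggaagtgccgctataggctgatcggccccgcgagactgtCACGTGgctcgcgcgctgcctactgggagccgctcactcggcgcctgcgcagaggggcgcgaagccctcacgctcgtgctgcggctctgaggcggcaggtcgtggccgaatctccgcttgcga
Syce1: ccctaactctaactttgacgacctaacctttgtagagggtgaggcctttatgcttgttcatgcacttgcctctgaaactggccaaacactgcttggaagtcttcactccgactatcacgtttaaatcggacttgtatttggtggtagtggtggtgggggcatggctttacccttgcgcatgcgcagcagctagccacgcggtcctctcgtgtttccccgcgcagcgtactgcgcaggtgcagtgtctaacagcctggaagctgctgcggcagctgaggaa
Meioc: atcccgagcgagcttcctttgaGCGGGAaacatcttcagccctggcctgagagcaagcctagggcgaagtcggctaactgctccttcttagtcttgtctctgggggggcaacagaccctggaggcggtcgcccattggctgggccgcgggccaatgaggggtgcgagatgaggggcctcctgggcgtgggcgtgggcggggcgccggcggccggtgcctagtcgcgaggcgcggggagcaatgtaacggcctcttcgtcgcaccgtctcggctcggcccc
Dmc1: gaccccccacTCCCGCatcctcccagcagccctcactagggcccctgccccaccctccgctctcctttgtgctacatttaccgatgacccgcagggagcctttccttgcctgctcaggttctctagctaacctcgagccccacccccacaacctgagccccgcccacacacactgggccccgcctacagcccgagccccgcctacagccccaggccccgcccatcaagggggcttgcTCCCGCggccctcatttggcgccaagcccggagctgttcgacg

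In Hormad1 the E-box begins 57 and again 20 bases before the start, and the E2F core 95 bases before it. Tex12 has the E-box 93 and the E2F core 145 bases before the start. Meioc has the E2F core alone, 228 bases before the start, and Dmc1 has it 240 and 13 bases before the start with no E-box. Syce1 and Sycp2, called higher in null-labelled embryos, hold neither motif. Whether the motifs bear on the levels was not tested. Syce1 holds 14 CG, Dmc1 18, Hormad1 24, Tex12 26 and Meioc 28.

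Germ cell markers were examined because germ cells could themselves carry meiotic transcripts. The summed FPKM of 6 defining markers of primordial germ cells (Dppa3, Nanog, Pou5f1, Nanos3, Dnd1 and Prdm14) was 1.87, 1.71 and 2.00 in Dnmt3b+/+ embryos, 2.05, 2.01 and 1.46 in null-labelled embryos and 1.77, 2.08 and 1.85 in Dnmt3bCI/CI embryos. The genotypes overlapped, and the test could not have reached 0.05 with 3 embryos a group (two-sided exact permutation p = 1.0 for null-labelled embryos against Dnmt3b+/+ and 0.8 for both comparisons with Dnmt3bCI/CI embryos, where 0.1 is the smallest possible). A sum without difference is no measure of the number of germ cells, since its members went both ways. The 10 axis and synapsis genes summed to 2.57, 2.91 and 3.45 FPKM, 18.2, 19.0 and 16.5 FPKM, and 8.24, 8.15 and 7.85 FPKM in the same embryos. Of the 4 defining markers fitted, 0 were called in any comparison, by limma or by limma-voom on reads. At an unadjusted p under 0.05, 1 was higher and 1 lower in null-labelled embryos than in Dnmt3b+/+ embryos, and 1 was higher and 0 lower than in Dnmt3bCI/CI embryos, beside the shares of all genes given for the somatic counterparts. Dnd1 had 1.14 ± 0.217 FPKM in null-labelled embryos against 0.674 ± 0.0603 FPKM in Dnmt3b+/+ embryos (SD, n = 3, log2 fold change 0.66, SE 0.18, adjusted p = 0.0266), under the threshold, and Nanos3 had 0.583 ± 0.194 against 0.907 ± 0.0930 FPKM (adjusted p = 0.0676). Dppa3 had 5, 0 and 6 reads in Dnmt3b+/+ embryos and 2, 0 and 0 in null-labelled embryos, and Pou5f1 had 16, 0 and 19 against 10, 2 and 0. Without Dnmt3b+/+ replicate 2, Pou5f1 was called lower in null-labelled embryos (log2 fold change -1.02). Nanog had at most 8 reads and Prdm14 at most 3 in any library. Both were under the level needed for the fit.

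Summed over all 14 germ cell markers, the difference was -0.19 FPKM (null-labelled minus Dnmt3b+/+), -0.904 FPKM (Dnmt3bCI/CI minus Dnmt3b+/+) and 0.715 FPKM (null-labelled minus Dnmt3bCI/CI), with two-sided exact permutation p = 0.7, 0.3 and 0.3. Of the 8 further markers, 6 were fitted and 0 were called against Dnmt3b+/+ in either genotype, although Utf1 was called lower without Dnmt3b+/+ replicate 2. Between the mutants Tfap2c, which other tissues also express, was called higher in null-labelled embryos, a call kept under 9 of 20 alternatives. Markers of the genital ridge, where germ cells lodge, summed to 9.86 to 11.4 FPKM in Dnmt3b+/+ embryos, 8.74 to 9.91 FPKM in null-labelled embryos and 8.51 to 9.22 FPKM in Dnmt3bCI/CI embryos. Of these 5 markers, 0 were called against Dnmt3b+/+ in either genotype, although Nr5a1 was called lower in null-labelled embryos without Dnmt3b+/+ replicate 2, and Lhx9 was called higher in null-labelled embryos than in Dnmt3bCI/CI embryos, a call kept under 14 of 20 alternatives. Of 8 genes of late spermatogenesis, 6 were too low to be fitted and 0 were called higher, while Acr was called lower in null-labelled embryos (log2 fold change -1.15, adjusted p = 0.0350), a call kept under 7 of 19 alternatives. The germline genes Dazl, Ddx4, Mael and Tdrd1, which methylation also holds off in somatic cells, were all called higher in null-labelled embryos, and Ddx4, Mael and Tdrd1 in Dnmt3bCI/CI embryos, where the call of Tdrd1 was kept under 15 of 20 alternatives and lost with the replicate number as a block. Ddx4 and Mael entered the fit only through the mutant genotypes, where they are high, so that their calls are no support for a difference. Dazl had 334, 343 and 305 reads in null-labelled embryos against 20, 1 and 11 in Dnmt3b+/+ embryos and 22, 17 and 14 in Dnmt3bCI/CI embryos, so that like Hormad1 it overlapped Dnmt3b+/+ in Dnmt3bCI/CI embryos.

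**Figure D5:**
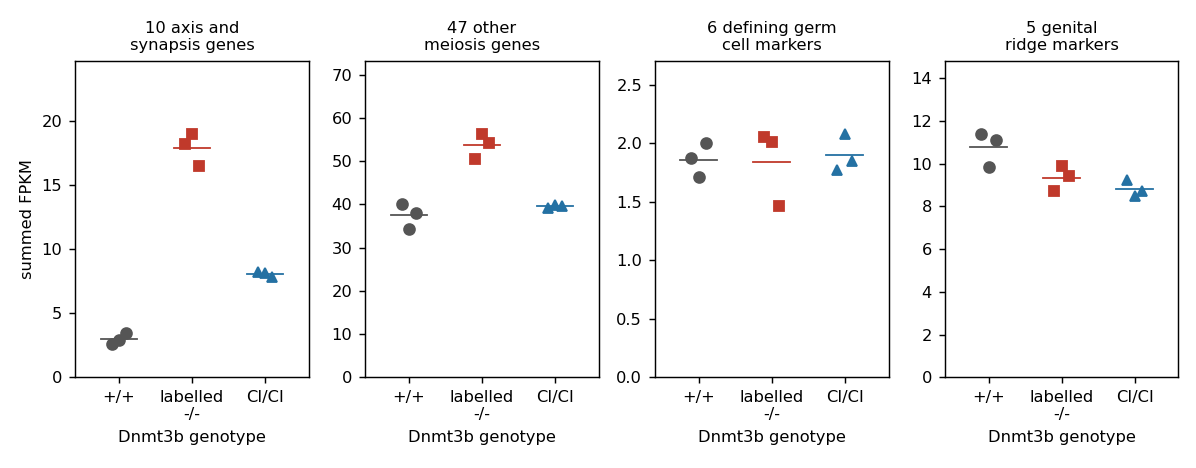
Summed FPKM per embryo over the 10 axis and synapsis genes, 47 other meiosis genes, 6 defining markers of primordial germ cells and 5 markers of the genital ridge, each on its own axis from 0. Emx2 has the largest part of the genital ridge sum on average. Points are embryos and lines are group means. The axis and synapsis genes reach 16.5 to 19.0 FPKM in null-labelled embryos, and the germ cell markers lie between 1.46 and 2.08 FPKM in all embryos, a sum in which Dnd1 is higher and Nanos3 lower on average in null-labelled than in Dnmt3b+/+ embryos.

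Leaving out the libraries that stood apart kept the calls in null-labelled embryos and lost some of those in Dnmt3bCI/CI embryos. Without Dnmt3b+/+ replicate 2, the one with few liver reads, 7 genes were called in null-labelled embryos, and Syce1 had a log2 fold change of 5.17, Sycp1 2.63 and Stag3 1.69. In Dnmt3bCI/CI embryos 3 genes were then called, with the call of Stag3 lost at a log2 fold change of 1.19. Sycp3 in null-labelled embryos went to 0.55. With only the 7 embryos with Y-linked reads, 7, 2 and 3 genes were called in the 3 comparisons, in the order above, and the calls of Stag3 and Meioc in Dnmt3bCI/CI embryos were lost.

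Genes outside the list with the pattern closest to the median of the 9 fitted genes over the 9 embryos were Iho1, 3222401L13Rik, Xlr, Gm17189 and Adad1. Their root mean square differences from it were 0.14, 0.18, 0.22, 0.25 and 0.27 on the log2 scale after centring on Dnmt3b+/+. That of Stag3, the closest of the listed genes, was 0.15, and that of Syce1, the farthest, 2.15. The median profile stood at 1.63, 1.66 and 1.63 in null-labelled embryos and at 1.14, 1.18 and 0.92 in Dnmt3bCI/CI embryos. Iho1 is a break formation gene of the meiotic axis. Adad1, a testis gene for an RNA-binding protein, had 0.0514 FPKM in Dnmt3b+/+ embryos, 0.432 FPKM in null-labelled embryos and 0.178 FPKM in Dnmt3bCI/CI embryos on average. Xlr, of an X-linked family related to SYCP3, had 0.0690, 0.410 and 0.218 FPKM, and reads of its relatives could be counted on it.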

How the data were processed

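RNA-seq of total RNA from 9 whole embryos (paired-end, Illumina) was aligned by the authors to mm10 with STAR, reads of low mapping quality were removed and genes were quantified in SeqMonk. The authors deposited FPKM per gene and embryo, without read counts. The annotation release, software versions and strandedness are not given in the sources used here. Low values were whole multiples of the worth of 1 read, which gave reads for 34094 of 34244 named genes (99.56%, within 0.02 reads of a whole number). A gene without reads carried 0.9 reads. Reads are given as counting depth, and intervals cover counting error only.

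The 19397 genes that reached 0.1 FPKM in 3 or more embryos were fitted on log2(FPKM + 0.1) by limma (version 3.58.1, R 4.3.3, trend, all 9 embryos, no covariates), and p-values were Benjamini-Hochberg adjusted. The filter and the pseudocount limit what can be said of low genes. Folds are ratios of mean FPKM. Where the reference group held 1 to 3 reads, the ratio of pooled reads with its exact 95% interval is given, and where it held 0, a bound against 3 reads. Summed markers were compared by exact permutation (scipy 1.17.1). The script of the fit was tested on simulated data. The 10 genes and all lists were chosen with earlier results of these data known. Named were the 10 genes, meiosis genes and somatic counterparts called in any comparison (at most 15), the defining germ cell markers and the 5 genes with the most similar pattern. Genes outside this rule are said to be named after their values were seen, or were named as markers of a library or tissue. Gene positions are from GENCODE on GRCm38 and promoters from RefSeq on GRCm38.p6. Other pseudocounts, filters, scalings and fits, and each embryo left out, were tried as alternatives. Bisulfite sequencing samples of the series were not analysed here, and 1 further gene planned as a somatic counterpart was left out of that list and is not reported here. The labels name separate embryos and no litters, so p-values measure the spread between these embryos.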

Additional observations from a re-analysis of the deposited data

How the results depend on the processing

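Of 522 alternative values of the log2 fold changes of the axis and synapsis genes, 0 reversed, 465 moved by less than 1 SD between replicates and 57 by more, among them 20 with a pseudocount of 1 FPKM, 14 with 0.01 FPKM and 14 with limma-voom. A pseudocount of 1 FPKM lowered the genes changed over the table from 863 to 193 (Dnmt3b-/- against Dnmt3b+/+), from 25 to 8 (Dnmt3bCI/CI against Dnmt3b+/+) and from 1051 to 242 (between the mutants), and the other meiosis genes from 10 to 2, from 5 to 0 and from 7 to 1, while the axis and synapsis genes called went from 7 to 3, from 4 to 1 and from 3 to 1. A filter of 1 FPKM gave 484 and 597 genes in the first and last of these comparisons and 3, 2 and 2 other meiosis genes. Without a fold change threshold 5001 and 5407 genes were changed, and 13 other meiosis genes between the mutants. With only the 7 embryos with Y-linked reads, an alternative chosen after seeing the data, Dnmt3bCI/CI against Dnmt3b+/+ gave 15 genes and 1 other meiosis gene. Leaving out 1 embryo gave 614 to 1427, 18 to 26 and 751 to 1604 genes, with the most when Dnmt3b-/- replicate 1 was left out, and 9 to 11, 3 to 5 and 7 to 8 other meiosis genes, with 3 when Dnmt3bCI/CI replicate 1 was left out. The labels give the genotypes the same replicate numbers. With the number as a replicate block, the other meiosis genes in Dnmt3bCI/CI embryos fell from 5 to 2 and the axis and synapsis genes called there from 4 to 2. The 9 correlations of same-numbered embryos ran from -0.34 to 0.215, with 1 above 0.1, so the numbers were not taken to pair the embryos. The difference in summed germ cell markers changed sign: over all 14 markers it was -0.904 FPKM (Dnmt3bCI/CI minus Dnmt3b+/+) and 0.715 FPKM (Dnmt3b-/- minus Dnmt3bCI/CI), and leaving out 1 embryo gave -0.126 to 0.17, -0.0497 to 0.112 and -0.168 to 0.127 FPKM. Depth limits Smc1b, Hormad1 and Tex12, with few reads in Dnmt3b+/+ embryos.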
